A study of Homo sapiens with 2 samples.

Results

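OGN/FOXD1/GDF10 mesenchyme is a set of 860 cells among the 32655 cell barcodes of human inner ear organoids at day 40 of culture, 426 in the GelNB-CH library and 434 in the Matrigel library. Members were selected on their own UMI (unique molecular identifier, 1 per captured RNA molecule) counts. A barcode needed at least 1000 genes, at most 15% mitochondrial UMIs and at least 3 UMIs of COL1A2, with fewer than 5 of OC90, 3 of MKI67, TOP2A and UBE2C, 2 of MMP9 and MMP13 and 3 of ACAN, CNMD and MATN4. It then needed at least 2 UMIs of OGN, FOXD1 and GDF10 together, and more of these than of BARX1, SFRP2 and INHBA and than of PAX3, VIPR2 and CRYM. The levels of those genes in members are therefore a description of the choice and no result.

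The organoids were grown from WA25 human embryonic stem cells that carry the SOX2-ntdTomato reporter in both groups, and reporter-positive cells were sorted after 90 min in Accutase and sequenced with the 10x 3' v3.1 assay. The GelNB-CH group was embedded on day 11 in a GelNB-CH hydrogel linked by PEG4SH at 0.1 wt% with LAP at 1 mM, kept with 3 µM CHIR99021, a WNT pathway activator, and given 0.02% oDex on day 15. The Matrigel group, in a gel extracted from basement membrane, carries the same growth description word for word, so its own embedding step is not known here. Each group is 1 library of 1 reporter line, the number of organoids pooled is not stated, and a difference between the libraries cannot be told apart from a difference between 2 cultures. No test between groups was possible, so the 95% intervals given here cover counting error only.

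After the limits on genes and mitochondrial UMIs, 21319 GelNB-CH and 10499 Matrigel barcodes remained, with medians of 9265 and 14403 UMIs. Members had medians of 8187 UMIs in GelNB-CH and 14338 in Matrigel, so the typical GelNB-CH cell was read less deeply. Only 78 barcode sequences were shared by the 2 libraries, and none of them was a member in both. Levels are UMIs summed over a set's cells, scaled to a total of 1000000 (CPM), with 1 value per library.

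Connective tissue of the head comes from neural crest and mesoderm, and around the developing ear it forms the otic capsule, the fibrous coverings and the loose tissue that meets the meninges. OGN encodes osteoglycin, a small leucine-rich proteoglycan of fibrous matrix, FOXD1 a forkhead transcription factor of stromal and meningeal precursors, and GDF10 a secreted relative of the bone morphogenetic proteins. Such cells are usually told apart by which matrix proteins they secrete and which transcription factors they keep from their region of origin.

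The level of OGN in members was 707 CPM in GelNB-CH and 1042 in Matrigel, against 94.0 and 110 in the BARX1/SFRP2/INHBA mesenchyme and 108 and 61.0 in the PAX3/VIPR2/CRYM mesenchyme, the other sets that the same rule forms. FOXD1 stood at 128 and 165 CPM and GDF10 at 115 and 146 CPM, both higher in members than in either of those sets, as the rule requires of their sum. The fibrillar collagen gene COL1A2 was at 2780 and 3764 CPM. Fibroblast genes that the rule did not use were present too: COL1A1, the partner chain of COL1A2, at 2486 and 3128 CPM, the growth factor receptor gene PDGFRA at 121 and 124, and the mesenchymal factor TWIST1 at 147 and 168. The markers in the label are genes of the rule, so their levels are no support for the name. The 12 listed pan-mesenchyme genes, COL1A2 included, summed to 14568 and 18702 CPM in members. In cells with at least 20 OC90 UMIs they summed to 4588 and 6415 CPM. Of the 11 outside the rule, 4 were higher in members than in both other mesenchyme sets in both libraries. So were 21.2% of all 8943 genes outside the rule with at least 10 CPM in members of both libraries. Of the 11, 1 was at least 2-fold higher, against 0.962% of those genes.

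OGN was read in 95.5% of GelNB-CH and 98.8% of Matrigel members, and in 9.06% and 9.33% of cells with at least 20 OC90 UMIs, an otic epithelial gene, which should lack it and had medians of 13021 and 19450 UMIs. FOXD1 was read in 53.8% and 68.4% of members and 5.15% and 3.64% of those otic cells, and GDF10 in 47.4% and 64.5% of members and 5.94% and 4.85% of otic cells. With every cell thinned to 5000 UMIs (1974 barcodes of GelNB-CH and 422 of Matrigel had fewer and dropped out), the shares in members were 91.3% and 93.7% for OGN, 43.4% and 47.2% for FOXD1, and 33.2% and 42.8% for GDF10. SOX2, whose reporter was used for the sort, was itself low in members, at 6.77 CPM in GelNB-CH and 4.08 in Matrigel, with a UMI in 18 and 19 cells, against 12.9 and 18.7 CPM in the otic cells. In GelNB-CH members 70.4% of the SOX2 UMIs came from the 10 cells with most of them.

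**Figure D1:**
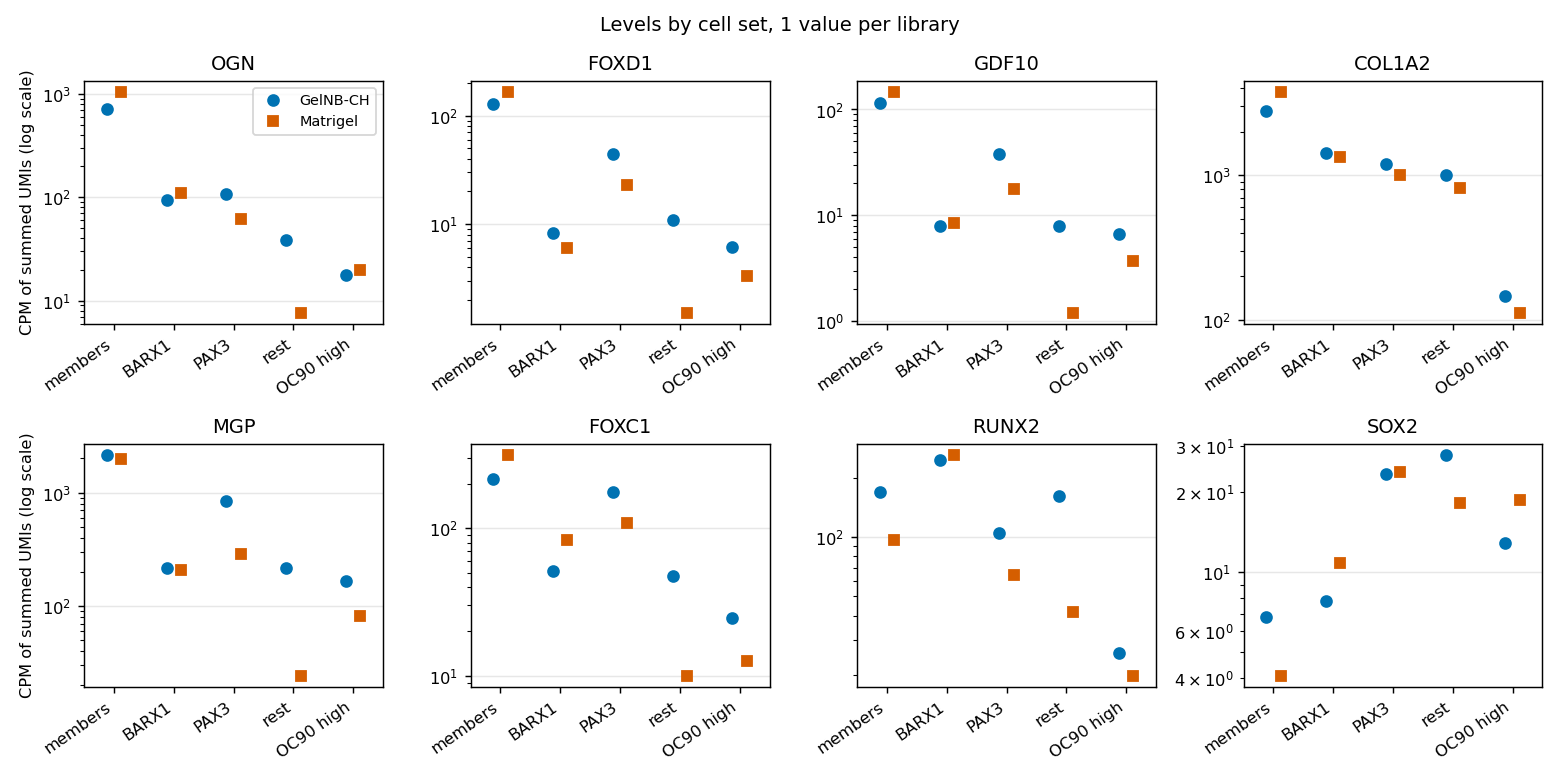
Each panel plots the CPM of 1 gene (log scale) in members, the BARX1/SFRP2/INHBA set (BARX1), the PAX3/VIPR2/CRYM set (PAX3), the rest of the cells that met the COL1A2 limits (rest) and cells with at least 20 OC90 UMIs (OC90 high), with a circle for GelNB-CH and a square for Matrigel. OGN, FOXD1, GDF10 and COL1A2 were used by the rule, MGP and FOXC1 were highest in members in both libraries, and SOX2 was lowest in members.

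The upstream 250 bases of the 3 genes that choose the members, and of AGT and RUNX2, which mark the kinds of member described further on, are printed so that their start regions can be compared. They come from RefSeq (GRCh38.p14), where all 5 genes were matched, and for OGN and RUNX2 with 2 listed windows the start furthest upstream was taken. Capitals mark exact matches on either strand to 5 motifs, none of which overlaps another here. The first is the TATA box, TATAAA, which 10.7% of all 35116 windows of this length hold. The CCAAT box was searched as CCAAT and is held by 32.0% of the windows. Forkhead factors were searched as GTAAACA, which 3.0% hold. The letters searched for RUNX factors were AACCACA, held by 3.6%. For homeodomain factors the search was for TAATTA, held by 4.3%.
OGN, chr9:92404700-92404949, minus strand: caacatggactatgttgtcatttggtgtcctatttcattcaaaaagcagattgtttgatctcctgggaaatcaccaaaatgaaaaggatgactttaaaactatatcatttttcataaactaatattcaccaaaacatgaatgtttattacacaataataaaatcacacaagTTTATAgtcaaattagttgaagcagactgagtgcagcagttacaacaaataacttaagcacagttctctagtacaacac
FOXD1, chr5:73448778-73449027, minus strand: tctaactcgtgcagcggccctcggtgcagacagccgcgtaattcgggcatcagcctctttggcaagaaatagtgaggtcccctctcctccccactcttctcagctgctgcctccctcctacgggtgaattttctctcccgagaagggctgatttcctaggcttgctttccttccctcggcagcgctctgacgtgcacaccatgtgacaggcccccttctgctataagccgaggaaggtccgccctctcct
GDF10, chr10:47299947-47300196, plus strand: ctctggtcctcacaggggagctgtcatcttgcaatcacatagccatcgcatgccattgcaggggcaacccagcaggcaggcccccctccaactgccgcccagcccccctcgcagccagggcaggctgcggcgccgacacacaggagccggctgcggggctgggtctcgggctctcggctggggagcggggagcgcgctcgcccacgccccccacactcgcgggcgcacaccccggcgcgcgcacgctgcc
AGT, chr1:230714123-230714372, minus strand: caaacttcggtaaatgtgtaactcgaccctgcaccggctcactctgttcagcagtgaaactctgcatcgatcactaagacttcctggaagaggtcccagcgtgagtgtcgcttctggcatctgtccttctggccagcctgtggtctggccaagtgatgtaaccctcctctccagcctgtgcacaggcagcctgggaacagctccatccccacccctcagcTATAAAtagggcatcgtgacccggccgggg
RUNX2, chr6:45328080-45328329, plus strand: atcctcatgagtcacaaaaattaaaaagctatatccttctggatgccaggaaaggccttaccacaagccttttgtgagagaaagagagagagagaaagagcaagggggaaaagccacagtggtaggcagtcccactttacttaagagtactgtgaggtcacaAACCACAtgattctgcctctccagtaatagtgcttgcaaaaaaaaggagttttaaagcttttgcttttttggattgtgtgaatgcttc
AGT held the TATA box letters from 30 to 25 bases before its start, OGN held them on the other strand from 79 to 74 bases before its start, and RUNX2 held the RUNX letters from 88 to 82 bases before its start. FOXD1 and GDF10 held none of the 5 motifs in these windows. The windows also differed in base composition, with 31.2% G and C for OGN, 41.6% for RUNX2, 57.2% for AGT, 58.8% for FOXD1 and 73.6% for GDF10.

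Members made up 2.00% of the kept GelNB-CH barcodes (95% Clopper-Pearson interval 1.81 to 2.20) and 4.13% of the Matrigel ones (3.76 to 4.53), a share 2.07 times as large in Matrigel (1.81 to 2.37). After thinning to 5000 UMIs the shares were 2.17% and 4.90%, and the ratio was 2.26 (1.98 to 2.58), so the order was the same at equal depth. Within the cells that met the COL1A2 limits, which were 18.6% of GelNB-CH and 30.9% of Matrigel barcodes, members were 10.8% (9.80 to 11.8) and 13.4% (12.2 to 14.6). The BARX1/SFRP2/INHBA set took 5.47% and 4.42% of barcodes and the PAX3/VIPR2/CRYM set 6.21% and 8.12%. After thinning the PAX3 set took 5.48% and 5.28%, a Matrigel to GelNB-CH ratio of 0.963 (0.867 to 1.07) in place of 1.31 (1.20 to 1.43), and the BARX1 set 4.66% and 4.10%, a ratio of 0.880 (0.781 to 0.990). These shares are of reporter-sorted cells, so they depend on the sort as well as on the organoids. They also depend on the rule. Through CRYM alone, 416 GelNB-CH and 177 Matrigel cells with at least 2 UMIs of OGN, FOXD1 and GDF10 were not members. The ratio of the shares with those cells counted as members was not computed.

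The genes that set members furthest apart from both other mesenchyme sets in both libraries included AGT, PRG4, FMO1, FOXD2, THBS2 and ALDH1A3. Of 8943 genes outside the rule with at least 10 CPM in members of both libraries, 86 (0.962%) were at least 2-fold higher in members than in each other set in each library. Since the cells were chosen on this contrast, this is a description. By the smallest of the 4 folds, AGT, the angiotensinogen gene, led with 43.9 CPM in GelNB-CH and 75.8 in Matrigel against 1.48 and 3.23 in the BARX1 set and 5.79 and 3.46 in the PAX3 set, at least 7.59-fold in every comparison. PRG4, which encodes lubricin of joint surfaces and other sliding tissue, was at 33.6 and 126 CPM against at most 4.64 in either other set. FMO1, a flavin monooxygenase gene, stood at 27.6 and 92.6 CPM, and the secreted protein genes PI15 and SPON2 at 28.6 and 51.0 and at 44.4 and 58.9. FOXD2, a forkhead gene related to FOXD1 and outside the rule, was at 20.1 and 42.9 CPM, at least 3.80-fold above both sets.

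The matrix protein gene THBS2 (thrombospondin 2) was at 41.6 and 88.1 CPM in members and between 9.78 and 12.1 in those sets. ALDH1A3, which makes retinoic acid, reached 61.7 and 75.8 CPM against 13.3 to 21.9 in the other mesenchyme, though the otic cells had more, 108 and 237. The vessel-stabilizing ligand gene ANGPT1 was at 80.5 and 128 CPM. NUPR1, a stress-responsive chromatin protein gene, was at 175 and 123 CPM, at least 3.11-fold above both sets. PLAAT4, NBL1, a BMP antagonist gene, CALCRL, the receptor gene for calcitonin-related peptides, and PLA2R1 followed, with smallest folds of 3.50, 3.49, 3.37 and 3.11. With at least 10 UMIs of COL1A2 asked of every cell the count was 45 in place of 86, and after thinning it was 50, where ALDH1A3 and PLA2R1 were short of 2-fold at smallest folds of 1.78 and 1.92.

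**Figure D2:**
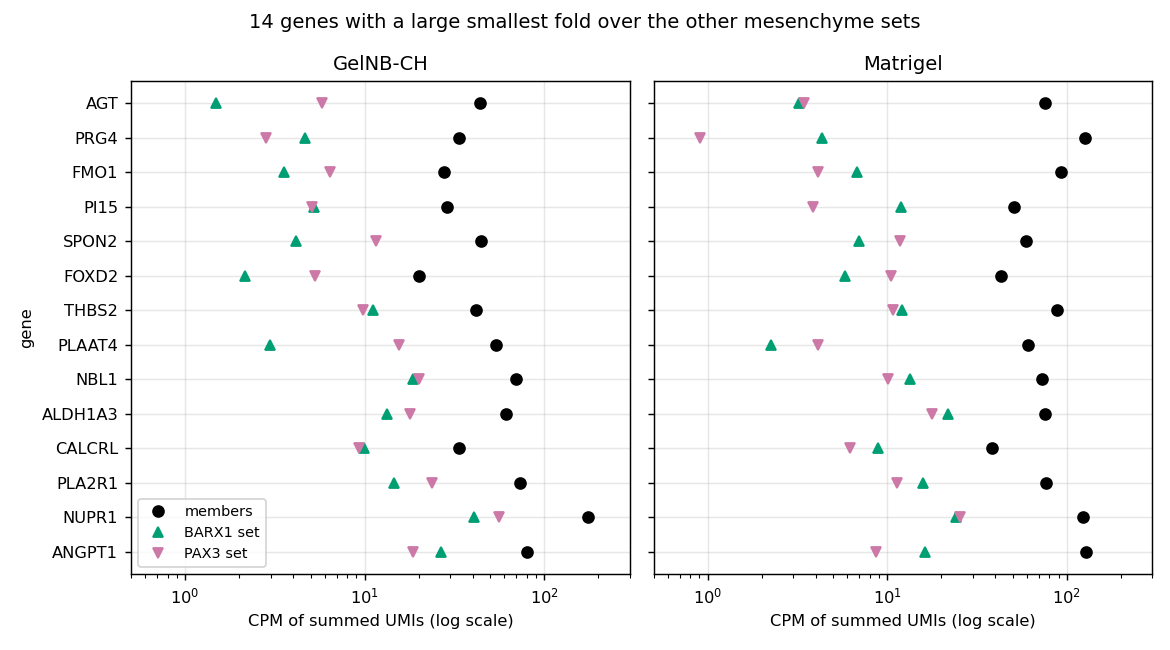
CPM (log scale) of 14 genes with a large smallest fold over the other mesenchyme sets, in GelNB-CH (left) and Matrigel (right), with circles for members, upward triangles for the BARX1/SFRP2/INHBA set and downward triangles for the PAX3/VIPR2/CRYM set, 1 value per set and library. Members lie to the right of both other sets for every gene, by at least 7.59-fold for AGT at the top and 3.03-fold for ANGPT1 at the bottom.

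In the other direction, 28 of 8662 genes (0.323%) with at least 10 CPM in both other sets were at least 2-fold lower in members in all 4 comparisons. IL1RAPL2, an interleukin 1 receptor family gene, was at 25.1 and 27.5 CPM against 100.0 to 189 in those sets, at least 3.99-fold lower. NPR3, the natriuretic peptide clearance receptor gene, was at 9.78 and 17.3 CPM against 31.6 to 208. The cartilage collagen gene COL9A1 was at 35.4 and 14.5 CPM against 89.7 and 82.1 in the BARX1 set, and the cartilage factor SOX5 at 192 and 152 against 409 to 679. The remaining genes that the naming rule gives were SLCO3A1, IFI44L, SPON1, DLGAP1, LIMCH1, LINC01619 and SOX2-OT, the transcript that spans SOX2, with the latter at 14.3 and 13.6 CPM against 33.2 to 70.6. After thinning, COL9A1, SPON1, LIMCH1 and SOX2-OT were less than 2-fold lower, at largest ratios to the other sets of 0.675, 0.796, 0.598 and 0.899.

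Among small leucine-rich proteoglycans, the family of OGN, 7 of the 17 other genes reached 10 CPM in members of both libraries. Of these 7, 2 (ASPN and BGN) were at least 2-fold higher than in both other sets, against 0.962% of all genes. ASPN (asporin), a neighbour of OGN on chromosome 9, was at 239 and 299 CPM in members, 83.4 and 83.4 in the BARX1 set and 74.2 and 34.5 in the PAX3 set. OMD (osteomodulin), which lies between them, was at 19.3 and 18.1 CPM, at least 1.76-fold above the others, while ECM2, the next of these genes, was at 7.53 and 7.73 CPM against 5.97 to 7.91. BGN (biglycan) was at 152 and 130 CPM. DCN (decorin) and LUM (lumican), the abundant members of the family, were at 362 and 292 and at 339 and 253 CPM, and in GelNB-CH both were higher in the BARX1 set, at 373 and 429. EPYC (epiphycan), a cartilage member, was lower in members, at 24.1 and 11.1 CPM against 41.1 to 151.

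Of the interstitial collagens and their fibril partners, 38 reached 10 CPM in members and 24 were higher in members in all 4 comparisons, as were 21.2% of all 8943 genes, 4 of them at least 2-fold, against 0.962% of all genes. These 4 were COL3A1, COL6A3, COL12A1 and THBS2. COL3A1, the collagen of pliable tissue, was at 1892 and 2664 CPM against 337 to 863, and COL6A3 at 296 and 270 against 39.3 to 103. Among enzymes of collagen assembly, 2 of 23 were at least 2-fold higher, LOX, which crosslinks collagen, at 57.7 and 109 CPM, and PCOLCE, which helps cut procollagen, at 430 and 411. In the basement membrane list 1 of 15 was, LAMC3, at 20.8 and 12.9 CPM. LAMA2, the laminin chain around muscle, nerve and meninges, was at 357 and 296 CPM against 29.6 and 33.7 in the BARX1 set and 203 and 149 in the PAX3 set.

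Of 32 cranial and periotic mesenchyme transcription factors with at least 10 CPM, 10 were higher in members in all 4 comparisons, against 21.2% of all genes, and none by 2-fold, against 0.962%. FOXC1, a forkhead gene of meninges and periocular mesenchyme, was at 217 and 315 CPM, against 51.0 and 83.7 in the BARX1 set and 175 and 108 in the PAX3 set. The zinc finger genes of dorsal head tissue ZIC1, ZIC2 and ZIC4 were at 89.8 and 123, 64.0 and 82.8, and 20.8 and 37.9 CPM, each at least 1.65-fold above both sets. TBX15, a gene of skin and skull mesenchyme, was at 41.1 and 52.1 CPM and MAF at 147 and 178. DLX5 and PRRX1, genes of jaw and limb mesenchyme, were lower in members than in the BARX1 set. DLX5 was at 22.8 and 15.6 CPM against 94.0 and 105 in the BARX1 set, and PRRX1 at 461 and 405 against 1020 and 806. None of the 16 HOX genes listed, which mark tissue behind the head, reached 10 CPM.

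Meningeal fibroblast genes were present in members at a summed 3775 CPM in GelNB-CH and 3768 in Matrigel, FOXD1 included, against 824 and 879 in the BARX1 set and 1928 and 1295 in the PAX3 set. Much of that sum was MGP, the matrix Gla protein that keeps soft tissue from calcifying, at 2155 and 1978 CPM and read in 79.8% and 86.9% of members (75.3% and 82.1% after thinning) and 22.8% and 18.3% of the deeper otic cells. MGP was the 1 of 14 listed genes that was 2-fold higher than both sets, against 0.962% of all genes. Of the 14, 9 were higher in all 4 comparisons, as were 21.2% of all genes. PTGDS, the prostaglandin D synthase gene of arachnoid cells, was at 120 and 119 CPM and no higher than in the Matrigel PAX3 set (144). SLC6A13, a transporter gene of meninges, stayed under 10 CPM, at 5.27 and 4.22 CPM (21 and 30 UMIs), and was at least 5.60-fold above both other sets. The set is called here by its 3 genes and given no narrower name.

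Members differed in which of the 3 genes they carried. OGN was carried alone, without FOXD1 or GDF10, by 119 of 426 GelNB-CH members (27.9%) and 82 of 434 Matrigel members (18.9%), and all 3 genes by 119 (27.9%) and 224 (51.6%). These shares depend on depth: after thinning to 5000 UMIs OGN alone was carried by 148 of 420 (35.2%) and 152 of 494 (30.8%), and all 3 by 75 (17.9%) and 127 (25.7%). OGN with FOXD1 was carried by 99 and 70 members, and OGN with GDF10 by 70 and 53. FOXD1 alone was carried by 6 and 2 members, too few to describe, so members with OGN alone were set against members with all 3, a contrast chosen after the data were seen. The latter were read more deeply, with medians of 9115 against 7247 UMIs in GelNB-CH and 15576 against 12821 in Matrigel.

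RUNX2, the master regulator of bone formation, was at 407 CPM in GelNB-CH members with OGN alone and 49.2 in those with all 3, and at 301 and 39.8 in Matrigel. The ratios of all 3 to OGN alone were 0.121 (0.0906 to 0.158) and 0.132 (0.109 to 0.160). SPOCK3, a secreted proteoglycan gene, had the same order, at 174 and 159 against 29.8 and 13.7 CPM. SORCS3, SNTB1, CAPN6, CTNNA3 and IQCJ-SCHIP1 were likewise higher with OGN alone in both libraries.

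Members with all 3 genes held more MGP, AGT, PRG4, FOXC1 and ZIC4. MGP was at 3305 and 2536 CPM with all 3 and 692 and 716 with OGN alone, ratios of 4.77 (4.40 to 5.18) and 3.54 (3.30 to 3.81). AGT was 11.5-fold (5.37 to 29.3) and 8.45-fold (5.07 to 15.2) higher with all 3, and PRG4 8.35-fold and 6.39-fold. These folds were smaller after thinning, with AGT at 37.3 and 107 CPM against 9.46 and 38.2, and PRG4 at 40.0 and 162 against 20.3 and 57.9. FOXC1 was at 265 and 378 CPM against 91.2 and 120, and ZIC4 at 26.6 and 46.5 against 4.05 and 7.97. The bicarbonate transporter gene SLC4A4, the tight junction gene CLDN11 of arachnoid and myelin, NRXN3 and STK32B followed the same order. After thinning CLDN11 was at 21.3 and 74.0 CPM against 14.9 and 36.8, closer together than before.

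COL1A2, by contrast, differed by 1.38-fold and 1.90-fold only. Thinned to 5000 UMIs per cell and sorted again by carried genes, RUNX2 was at 318 and 284 CPM with OGN alone and 58.7 and 63.0 with all 3, and MGP at 1261 and 1342 against 3405 and 2915. The glial gene S100B moved with the carried genes in Matrigel, at 563 CPM with OGN alone and 79.6 with all 3, but in GelNB-CH it was at 98.3 and 138. The part of glial RNA in the Matrigel contrast was not tested.

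**Figure D3:**
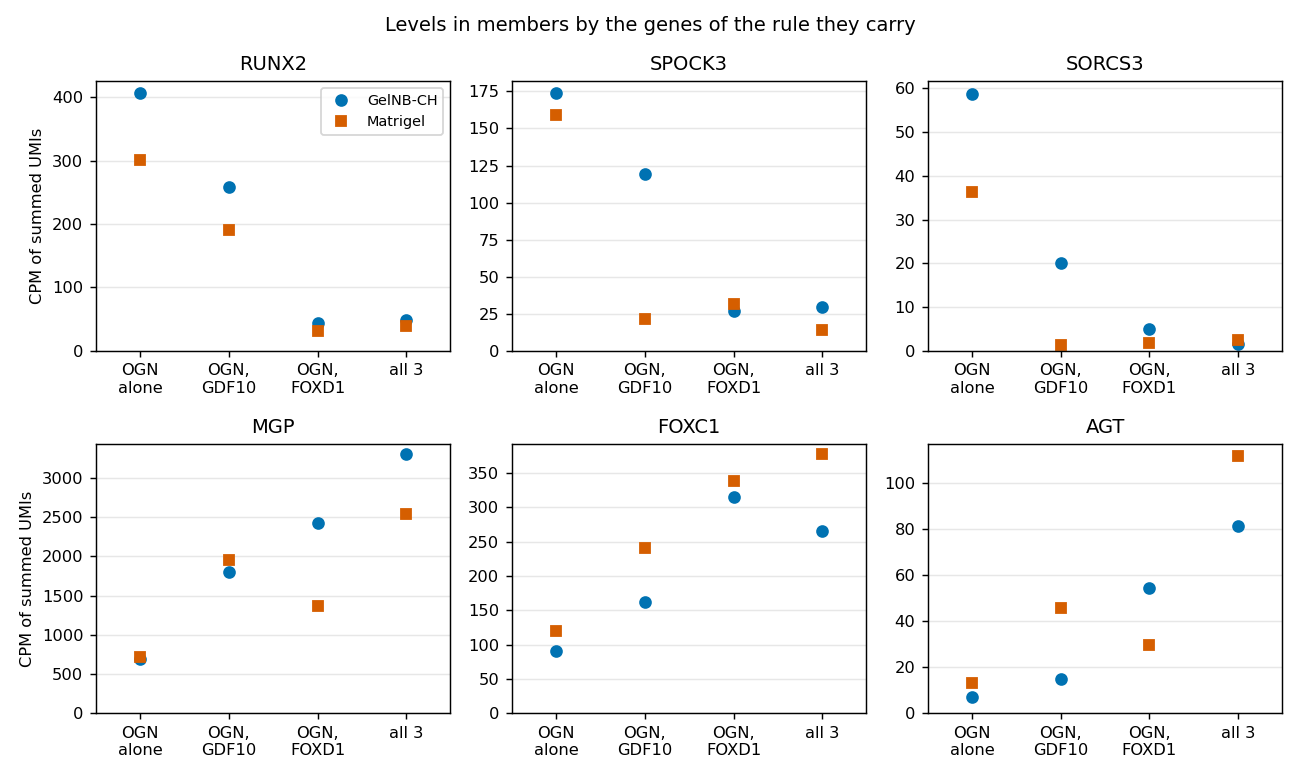
CPM of 6 genes in members that carry OGN alone, OGN with GDF10, OGN with FOXD1 or all 3 genes, with circles for GelNB-CH and squares for Matrigel, 1 value per library and kind. RUNX2, SPOCK3 and SORCS3 (top row) were highest in members with OGN alone, while MGP, FOXC1 and AGT (bottom row) were lowest in members with OGN alone.

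In RUNX2 and ZIC1, members with OGN and FOXD1 were closer to those with all 3 than were members with OGN and GDF10. RUNX2 was at 44.5 and 30.6 CPM with OGN and FOXD1, against 259 and 190 with OGN and GDF10, and ZIC1 at 115 and 138 against 58.5 and 71.4. Other genes lay the other way: in Matrigel MGP was at 1364 CPM with OGN and FOXD1, 1956 with OGN and GDF10 and 2536 with all 3, and AGT at 29.8, 45.8 and 112. ASPN lay the other way in each library, at 162, 264 and 241 CPM in GelNB-CH and at 155, 328 and 351 in Matrigel, in the same order. Sorted instead by RUNX2 at 5000 UMIs per cell, 76 of 420 GelNB-CH members (18.1%) and 66 of 494 Matrigel members (13.4%) had at least 2 RUNX2 UMIs. In these the level of FOXD1 was 31.6 and 54.5 CPM and that of MGP 624 and 770. In members with no RUNX2 UMI, FOXD1 was at 192 and 195 CPM and MGP at 2717 and 2388. ASPN ran the other way, at 382 and 488 CPM with RUNX2 and 226 and 324 without. In the whole of the members RUNX2 was at 170 and 97.1 CPM, against 246 and 261 in the BARX1 set.

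At the limit of the rule, members with exactly 2 UMIs of the 3 genes, 50 in GelNB-CH and 18 in Matrigel, differed from the rest. Members with 3 or more UMIs had MGP at 2281 and 2062 CPM, those with exactly 2 had 959 and 27.3 CPM, and cells just outside with exactly 1 and none of the other sets' genes (60 and 59 cells) had 318 and 17.4. S100B ran the other way, at 127 and 152, then 250 and 1413, then 845 and 3190 CPM. The 18 Matrigel members at the limit were thus closer in MGP to the cells outside than to the other members. A further 284 GelNB-CH and 153 Matrigel cells had at least 2 UMIs of the 3 genes but as many or more of BARX1, SFRP2 and INHBA. Another 433 and 195 had as many or more of PAX3, VIPR2 and CRYM, 416 and 177 of them through CRYM alone, which members also carried at 309 and 221 CPM.

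Of 9941 genes outside the rule with at least 10 CPM in either library, 167 (1.68%) lay 2-fold or more above their Matrigel level in GelNB-CH and 197 (1.98%) lay as far above in Matrigel, around a median log2 ratio of -0.02. The counts rest on what is compared: among members of 8000 to 16000 UMIs they were 297 and 362, and with 10 UMIs as the only minimum 668 and 1238. C7, IFITM1, PCP4, PRG4 and CLDN11 were higher in Matrigel and were read in many members. On the GelNB-CH side MYT1L, SPRR3, SPRR1B and KRT17 were read in few members, and CADM2 and NEGR1 in more.

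C7, a component of the complement attack complex made by fibroblasts, was at 8.78 CPM in GelNB-CH and 54.1 in Matrigel, 6.16-fold higher in Matrigel (4.35 to 8.98), with a UMI in 19 and 89 members. IFITM1, an interferon-induced membrane protein gene, was at 19.6 and 102 CPM, 5.20-fold higher (4.11 to 6.66), in 44 and 197 cells. PCP4, a calmodulin-binding peptide gene, was at 24.3 and 104 CPM, and ENPP6, a choline phosphodiesterase gene, at 3.76 and 21.6. CFB, the complement factor B gene, was at 4.77 and 24.5 CPM and RASSF2 at 6.02 and 21.8. PRG4 was 3.73-fold higher in Matrigel (3.11 to 4.51), in 36 and 117 cells, and CLDN11 3.71-fold (3.07 to 4.52), in 56 and 151 cells.

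Matrigel held a larger share of members with all 3 genes, before and after thinning, so these values were also read in such members alone. There C7 was at 4.84 and 77.4 CPM, 16.0-fold higher in Matrigel (7.27 to 43.9), PCP4 at 6.45 and 123, IFITM1 at 10.5 and 114, CLDN11 at 33.0 and 150, and PRG4 at 67.7 and 181, 2.67-fold (2.13 to 3.39). C7, PCP4, IFITM1 and CLDN11 were thus further apart there than in all members, and PRG4 less far. With the 10 members that held most UMIs of the gene left out in each library, C7 was 13.3-fold, IFITM1 8.06-fold, PCP4 8.98-fold, PRG4 7.47-fold and CLDN11 3.65-fold higher in Matrigel. Among members of 8000 to 16000 UMIs only, the GelNB-CH to Matrigel ratio of C7 was 0.562 and that of CLDN11 0.503, both short of 2-fold, while those of PCP4, IFITM1 and PRG4 were 0.0873, 0.203 and 0.327.

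Another 4 of the 12 genes were read largely in few members. CDH19, a Schwann cell cadherin gene, was at 5.77 and 34.9 CPM, PPP2R2B at 16.1 and 85.2, SLC35F1 at 16.3 and 72.1 and OLFML2A at 7.27 and 26.1. In Matrigel 68.5% of the CDH19 UMIs, 82.0% of PPP2R2B, 66.1% of SLC35F1 and 52.2% of OLFML2A came from 10 members each. All 4 were higher in the remaining COL1A2 cells that belong to no set, at 493, 1072, 814 and 317 CPM in Matrigel. In members with all 3 genes, CDH19 was at 3.22 and 5.97 CPM and PPP2R2B at 11.3 and 7.46, ratios of Matrigel to GelNB-CH of 1.85 (0.636 to 7.34) and 0.661 (0.340 to 1.35). After thinning the GelNB-CH to Matrigel ratios over all members were 0.706 for CDH19 and 0.560 for PPP2R2B. Of the 10 listed Schwann and satellite glia genes, 8 reached 10 CPM in members. Of these, 5, among them SOX10, INSC and CDH19, were at least 2-fold higher in Matrigel, against 1.98% of all genes. Their summed level was 210 CPM in GelNB-CH and 390 in Matrigel, against 2447 and 5905 in the remaining COL1A2 cells, none of the 10 was at 0, and their part in these 4 genes was not tested.

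On the GelNB-CH side, MYT1L, a neuronal transcription factor gene, was at 20.8 CPM against 0.281 (83 and 2 UMIs), 74.1-fold higher (19.9 to 622), but 94.0% of its GelNB-CH UMIs lay in 10 cells. SPRR3 and SPRR1B, cornified envelope genes of stratified epithelium, were each read in 1 member of each library, and KRT17 in 4 and 4. OTOR (otoraplin), a gene of cochlea and cartilage, was at 35.9 and 2.81 CPM with 89.5% of its GelNB-CH UMIs in 10 cells, and the axon guidance receptor gene DCC at 83.8 and 7.45 with 91.6%. CSMD1 was at 63.2 and 5.06 CPM and KIRREL3 at 25.1 and 4.64. SNTG1 was at 37.6 and 10.3, with 93.3% of its GelNB-CH UMIs in 10 cells. Without the barcodes that the caller Scrublet marks as doublets (27 and 17 members), 108 genes in place of 167 were 2-fold higher in GelNB-CH, and the GelNB-CH to Matrigel ratio was 1.67 for DCC and 0.581 for SNTG1. With the 10 highest cells of each library left out instead, the ratio was 16.8 for DCC and 4.54 for SNTG1. In members with all 3 genes, DCC was 27.2-fold higher in GelNB-CH (15.9 to 50.1), on 126 and 15 UMIs. Broader were the synaptic adhesion gene CADM2, at 105 and 27.7 CPM in 97 and 61 cells, NEGR1 at 22.1 and 5.48, and CLSPN, a replication checkpoint gene, at 22.6 and 5.62 in 38 and 27 cells. CADM2 was 3.79-fold higher in GelNB-CH (3.19 to 4.51), 3.82-fold without the 10 highest cells of each library, and 4.16-fold (3.08 to 5.63) in members with all 3 genes.

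Of 10 neuron genes, 9 reached 10 CPM and 5 were over 2-fold up in GelNB-CH, against 1.68% of all genes, with a summed level of 676 and 388 CPM and none at 0. Of the 9, 2 were lower in GelNB-CH. Their GelNB-CH to Matrigel ratios were 0.681 (0.562 to 0.821) for SNAP25 and 0.667 (0.426 to 1.02) for NEUROD1. GAP43, a growth cone gene, was at 317 and 141 CPM, and STMN2, which neurons express, at 99.3 and 43.7, with a UMI in 25 and 18 members. Without the barcodes marked by Scrublet, the GelNB-CH to Matrigel ratio of STMN2 was 1.39 and that of INA, a neurofilament gene, 1.51, and STMN2 was at 1.71 after thinning. Of 8 keratinocyte genes, 3 reached 10 CPM, and 2 of these, KRT5 and SFN, were over 2-fold up in GelNB-CH, against 1.68% of all genes. KRT5 was at 10.8 and 0.141 CPM, on 43 and 1 UMIs, and SFN at 11.8 and 1.41 CPM, on 47 and 10 UMIs. How many members held these UMIs is not given here. The other gene, PERP, had a GelNB-CH to Matrigel ratio of 1.03 (0.758 to 1.40), an interval that holds 1. DSG3 was at 0 in both libraries. The summed keratinocyte level was 44.1 and 22.3 CPM. The part of such cells in the GelNB-CH genes was not tested.

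**Figure D4:**
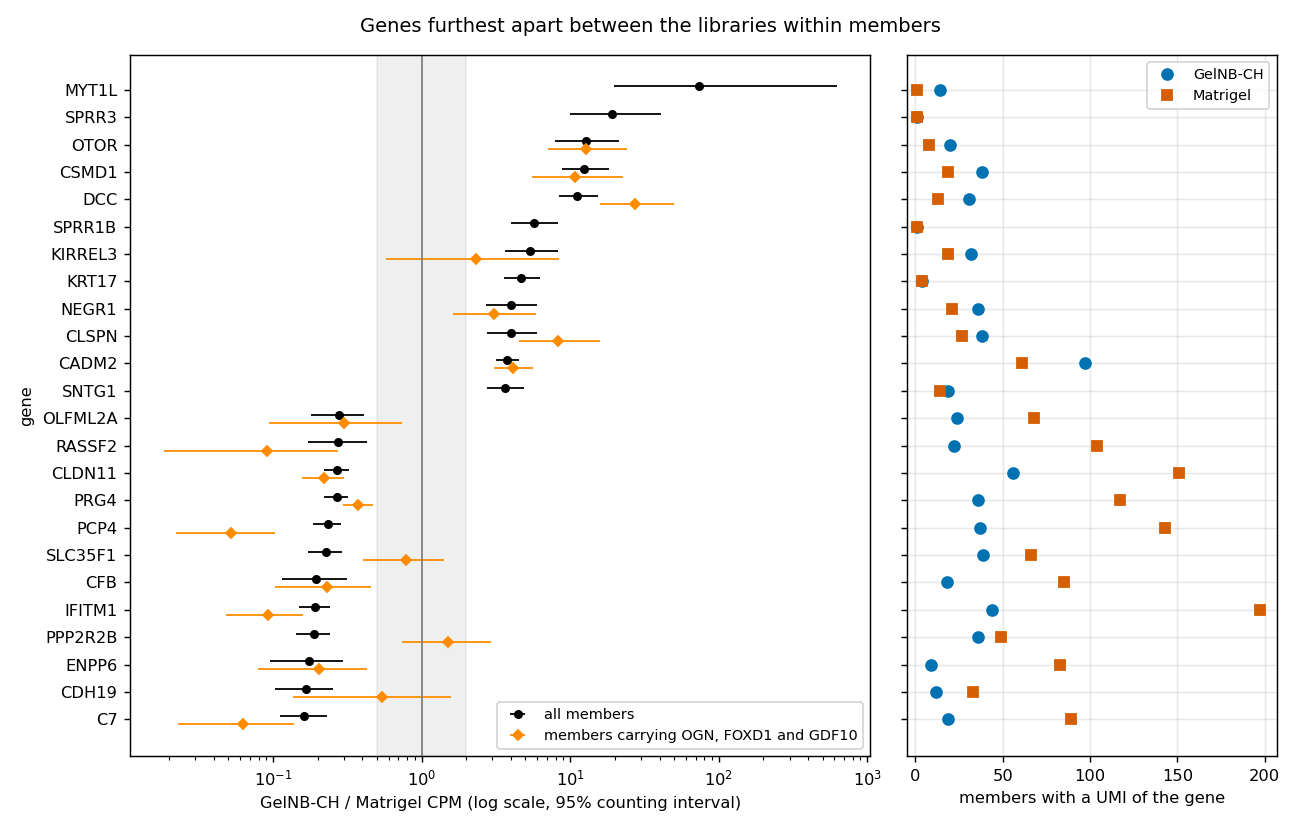
Left, the ratio of GelNB-CH to Matrigel CPM (log scale, 95% counting interval) of the 24 genes furthest apart, with black circles for all members and orange diamonds for members that carry OGN, FOXD1 and GDF10 where both libraries held UMIs, and a grey band from 0.5 to 2. Right, the number of members with a UMI of the gene in each library, which is 1 for SPRR3 and SPRR1B and 197 for IFITM1 in Matrigel. C7, PCP4, IFITM1 and CLDN11 stayed apart in members with all 3 genes, and PPP2R2B and SLC35F1 did not.

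Some lists lay almost wholly to 1 side. All 18 sterol synthesis genes were lower in GelNB-CH, with a median log2 ratio of -0.71 against -0.02 for all genes and 52.8% of all genes lower, and none of the 18 was 2-fold apart. MSMO1, an enzyme gene of the later steps of the pathway, was at 193 and 359 CPM, 1.86-fold higher in Matrigel (1.71 to 2.02). The same list had medians of -0.30 in the BARX1 set and -0.15 in the PAX3 set.

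Immediate early genes, which respond within minutes to stimulation or handling, were lower in GelNB-CH for all 20 genes, with a median log2 ratio of -0.76, and 6 of the 20, against 1.98% of all genes, were at least 2-fold higher in Matrigel. DUSP1 was at 29.3 and 74.5 CPM, ATF3 at 32.9 and 86.7, NR4A1 at 45.2 and 106, and FOS at 482 and 614. The medians were -0.49 in the BARX1 set and -0.09 in the PAX3 set. Heat shock chaperones went the other way, higher in GelNB-CH for 12 of 13 genes with a median of 0.29 and none of these 12 was 2-fold higher, as in HSP90AA1 at 1055 and 682 CPM. The exception was CRYAB, 2.97-fold higher in Matrigel (2.14 to 4.19), although its ratio of GelNB-CH to Matrigel turned to 1.82 after thinning. The median of that list was 0.38 in the BARX1 set and 0.50 in the PAX3 set.

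In the matrix, 26 of 38 interstitial collagen and fibril partner genes were lower in GelNB-CH, with a median of -0.28, and 1 of them, THBS2, was 2-fold lower, 2.12-fold higher in Matrigel (1.78 to 2.53), a GelNB-CH to Matrigel ratio that became 0.598 without OGN in the rule and 0.513 without FOXD1. COL3A1 was at 1892 and 2664 CPM and the fibulin gene FBLN1 at 253 and 466. In the basement membrane list 2 of 17 were 2-fold higher in Matrigel, against 1.98% of all genes, COL18A1 at 53.9 and 114 CPM and COL4A6 at 5.77 and 17.6. COL18A1 was no longer 2-fold apart under 6 alternatives, with GelNB-CH to Matrigel ratios from 0.508 without barcodes marked by Scrublet to 0.714 after thinning. Among signalling genes, TGFB3 and TGFBR3, a ligand and a co-receptor, were the 2 of 30 in the BMP and TGF-beta list that were 2-fold apart, at 33.1 and 72.5 and at 40.9 and 82.8 CPM, both higher in Matrigel. In the growth factor axis of IGF 1 of 12 was, IGF1, at 41.1 and 90.6 CPM, and the chemokine gene CCL2 was at 26.8 and 77.7. After thinning their GelNB-CH to Matrigel ratios were 0.503 and 0.569, and that of CCL2 was 0.731 among members of 8000 to 16000 UMIs and 0.506 without OGN in the rule. None of 34 transcription factors, 27 WNT pathway genes, 9 hedgehog pathway genes or 25 collagen assembly genes was 2-fold apart, against 1.68% and 1.98% of all genes in each direction, and nothing is read from these counts of 0.

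**Figure D5:**
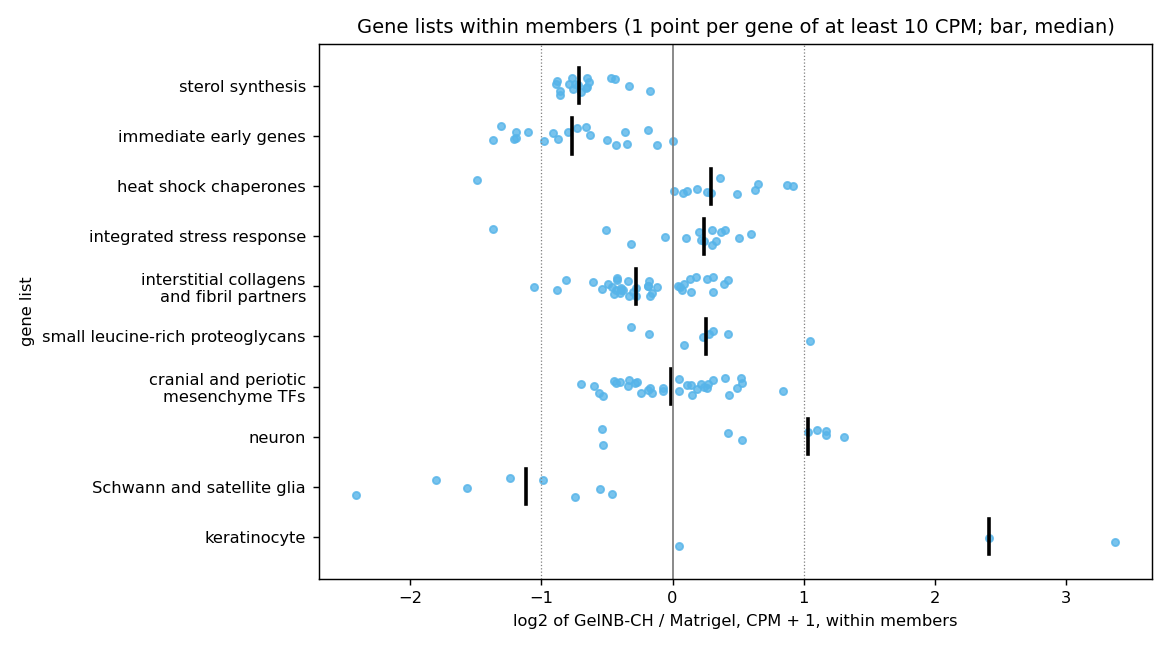
The log2 ratio of GelNB-CH to Matrigel (CPM + 1) within members for 10 gene lists, 1 point per gene with at least 10 CPM in either library and genes of the rule left out, with a black bar at the median and dotted lines at 2-fold. Sterol synthesis and immediate early genes lie to the left of 0, at medians of -0.71 and -0.76, and heat shock chaperones mostly to the right.

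Of the retinoic acid genes, CRABP1, a carrier of retinoic acid in the cell, was at 1331 and 1909 CPM in members, below the 2501 and 2474 of the BARX1 set. Of 13 genes, 2 were 2-fold higher in Matrigel, against 1.98% of all genes. DHRS3, which turns retinal back to retinol and is induced by retinoic acid, was 2.78-fold higher (2.00 to 3.93). ALDH1A2, the other, was at 6.52 and 14.2 CPM. ALDH1A2 was no longer 2-fold apart under 5 alternatives, with GelNB-CH to Matrigel ratios from 0.516 without GDF10 in the rule to 0.948 without OGN. In the BARX1 set DHRS3 was at 14.9 and 36.9 CPM. WNT6, a ligand gene, was at 16.3 and 18.6 CPM in members and at most 4.85 in the other sets.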

How the data were processed

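Reporter-positive cells of 2 organoid cultures were measured by droplet sequencing, 1 library per group. The deposited matrices hold raw UMI counts per gene and barcode, which the authors made with Cell Ranger 7.1.0 per the file headers (4.0.0 per the labels' protocols); STAR and GRCh38 are named in the submitters' processing notes. Both held 36601 genes, with 247006223 UMIs over 21743 barcodes in GelNB-CH and 178672097 over 10912 in Matrigel.

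The members, gene lists and comparisons were chosen with earlier results of these data known. Counts were summed over the cells of a set and scaled to CPM (Python 3.11.15, scipy 1.17.1). A gene was called where its larger CPM was at least 10 and it was at least 2-fold apart. Intervals for ratios are conditional binomial and for shares Clopper-Pearson. Log2 ratios add 1 CPM. Doublets were not removed, since the rule does not ask for it; Scrublet (scanpy 1.11.5) marked 14.2% of barcodes in GelNB-CH and 6.55% in Matrigel, and 6.34% and 3.92% of members, and leaving these out was an alternative. TMM factors (edgeR 4.0.16) and size factors (DESeq2 1.42.0) served as alternative scalings only. On simulated counts for the comparison of GelNB-CH with Matrigel in members (9769 genes), 100 of 100 genes changed 4-fold were called, 2 of 100 changed 1.5-fold and 1 of 9570 unchanged. Those counts were drawn with counting error alone, without spread between cells or between cultures. They therefore cannot show how many of the calls in the data are false.

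Genes were named by fixed rules. Between libraries these were the 12 largest ratios in each direction, given 20 CPM in either library and an interval beyond 2-fold. Against the other sets they were the 15 highest and 10 lowest by the fold nearest to 1 at 20 CPM, and by carried genes 8 in each direction. The genes of the rule, SOX2, the transcription factors, the proteoglycans and the neighbours of OGN could also be named, and from each other list up to 6 members with at least 5 CPM. Some genes that these rules give are not reported here. Further genes named were chosen after their values were seen. Mitochondrial, ribosomal, clone-named and sex-linked marker genes were left out.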

Additional observations from a re-analysis of the deposited data

Results flagged for a closer look

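For 5 genes the difference between GelNB-CH and Matrigel lay in opposite directions in members and in the PAX3/VIPR2/CRYM mesenchyme of the same libraries, each by at least 1.5-fold, and the difference between the sets was not tested. The ratio of GelNB-CH to Matrigel CPM of CADM2, a synaptic adhesion gene, was 3.79 in members and 0.588 in the PAX3 set. That of ITGA8, an integrin gene of mesenchyme, was 2.32 and 0.468, and that of the neuronal gene STMN2 2.27 and 0.500. PCP4, the calmodulin-binding peptide gene, had a ratio of 0.234 in members and 2.15 in the PAX3 set, and FABP7, a fatty acid carrier gene of glia and neural progenitors, 0.290 and 1.70. Without the barcodes marked by Scrublet STMN2 was at 1.39 in members, and after thinning ITGA8 was at 1.42 and STMN2 at 1.71.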

How the results depend on the processing

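No paired analysis was possible because each group is 1 library, and leaving out a replicate was not possible for the same reason. The limits are those of 1 culture per group and of the lower depth of GelNB-CH. TMM and DESeq2 scaling moved the log2 ratios of GelNB-CH to Matrigel by 0.01 and 0.03. The share of members in GelNB-CH, 2.00%, became 1.76% with at least 3 UMIs of OGN, FOXD1 and GDF10, 1.59% with at least 10 of COL1A2, 1.75% without FOXD1 in the rule, 1.76% without GDF10 and 0.460% without OGN. In Matrigel, 4.13% became 1.82% without OGN, 4.90% after thinning and 4.74% at 8000 to 16000 UMIs.

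Genes 2-fold higher in GelNB-CH numbered 108 without barcodes marked by Scrublet, 297 at 8000 to 16000 UMIs, 475 without OGN, 307 and 84 with a CPM minimum of 5 and 20, and 668 with 10 UMIs as the only minimum, in place of 167. Those higher in Matrigel numbered 362, 461, 382, 109 and 1238 at 8000 to 16000 UMIs, without OGN, at 5 and 20 CPM and at 10 UMIs, in place of 197. Genes higher than in both other sets numbered 45 with at least 10 UMIs of COL1A2 and 50 after thinning, in place of 86. Genes lower than in both numbered 47 with at least 3 UMIs of the 3 genes, 66 without marked barcodes, 77 at 8000 to 16000 UMIs, 94 without OGN and 43 at 5 CPM, in place of 28.

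The GelNB-CH to Matrigel ratio turned in 12 cases among named genes. These were SNTG1 at 0.581 without marked barcodes, CRYAB at 1.82, ITGA6 at 1.18 and KRT17 at 0.196 after thinning, CDH13 at 0.974, CXCL1 at 2.63, EPYC at 0.688 and TAGLN at 2.02 at 8000 to 16000 UMIs, and CDH13 at 0.875, NEUROD1 at 2.29, PTPRZ1 at 2.95 and S100B at 2.28 without OGN. The counting interval of the turned ratio held 1 for SNTG1, ITGA6, KRT17, CXCL1, EPYC and, at each setting, CDH13, so their direction there is not settled. KRT17 rested on 1 and 6 UMIs after thinning. At 8000 to 16000 UMIs the list medians turned for perichondrium and tendon (-0.20), cartilage (-0.23), pericyte and smooth muscle (0.11) and the proteoglycans (-0.22). The cause of these moves was not tested, apart from the CPM and UMI minimums, which change the number of genes compared.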

Other observations

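Many cells that met the COL1A2 limit and held at least 2 UMIs of OGN, FOXD1 and GDF10, and more of these than of either other set's genes, were kept out of the members by the remaining criteria. There were 1230 such cells in GelNB-CH and 1134 in Matrigel, of which 804 and 700 were kept out. The cartilage criterion (ACAN, CNMD and MATN4) alone kept out 470 and 458 cells, more than the 426 and 434 members. Those cells had OGN at 690 CPM in GelNB-CH and 920 in Matrigel, FOXD1 at 101 and 137, and MGP at 2518 and 2657, close to the 2155 and 1978 CPM of members. S100B, which cartilage and glia express, was at 563 and 551 CPM in them.

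The proliferation criterion alone kept out 42 and 48 cells, with OGN at 363 and 523 CPM, FOXD1 at 202 and 153 and MGP at 1545 and 1588. The MMP9 and MMP13 criterion alone kept out 20 and 20 cells, with MGP at 3181 and 1432 CPM. The OC90 criterion alone kept out 10 and 10, with median depths of 18854 and 26212 UMIs.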
